A study of Mus musculus with 9 samples.

Results

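The Hox genes of the mouse spinal cord are described here across its cholinergic neurons, by region, class, cluster and library. The members are all features whose symbol is Hox, a cluster letter from a to d and a number, with antisense and opposite-strand transcripts left out. This gave 28 of 21457 features. The GENCODE M21 annotation holds 39 such genes. The 28 are 7 of 11 in cluster A, 9 of 10 in cluster B, 6 of 9 in cluster C and 6 of 9 in cluster D. The other 11 (Hoxa3, Hoxa4, Hoxa5, Hoxa6, Hoxb1, Hoxc6, Hoxc8, Hoxc9, Hoxd1, Hoxd4 and Hoxd12) were not analysed here.

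Hox genes encode homeodomain transcription factors that give cells of the body axis their position. They lie in 4 clusters, A to D, and genes at matching places in different clusters form a paralog group. Low-numbered groups are expressed from the hindbrain down and high-numbered groups only toward the tail. In the embryonic cord they set where motor columns and motor pools form, working with PBX and MEIS cofactors.

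The study took nuclei from spinal cords of 8-week-old mice, sorted for a green nuclear envelope protein, and sequenced their RNA with a droplet method. There were 3 pools of 4 mice, and each gave a cervical, a thoracic and a lumbar/sacral library, 9 in all. Pool 1 held 2 males and 2 females, pool 2 held 4 males and pool 3 held 4 females. All mice were of the strain labelled Chat-IRES-Cre::Sun1-sfGFP, with the genotype Chat-iCre:+/wt and SUN-SfGFP:+/wt, and were not treated. Cre driven from Chat, the gene for choline acetyltransferase, marks every cell that ever expressed it, so the sort also takes neurons that no longer do. Each library is a pool, so no value belongs to 1 mouse, and pool 2 and pool 3 cannot be told apart from sex.

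The values are corrected counts that the authors made with a model (SCTransform), for 16042 nuclei they typed as cholinergic. Their methods describe this step by region. Within a library the total per nucleus had an SD of 5.85 to 10.7% of its mean. Yet the median total was 7087, 16127 and 10255.5 in cervical replicates 1 to 3, so the correction may have been made by library. Part of a difference between regions or libraries may come from separate corrections, which was not tested. Of the nuclei, 4992 were labelled cervical, 4911 thoracic and 6139 lumbar/sacral. By class, 5054 were skeletal motor neurons (MNs), which drive muscle, 5613 were visceral MNs, which drive autonomic ganglia, and 5375 were interneurons. The total per library ran from 9751375 to 19432614, and the median total per nucleus from 4712 in lumbar/sacral replicate 1 to 16127 in cervical replicate 2. In all, 24 cell barcodes occurred in more than 1 cholinergic library. The deposited annotation marks no doublets, and none were called or removed here, so droplets that held nuclei of 2 types may be among the values. For each library and class the values of all nuclei were added up and scaled to 1000000, written CPM. Markers fit the class labels: the summed level of Tns1, Prph and Chat was 560 to 936 CPM in skeletal MNs and at most 442 CPM in the other classes. Zeb2, Fbn2 and Nos1 together were at 1000 to 1632 CPM in visceral MNs and at most 576 CPM elsewhere, where Nos1 made up most of the interneuron level. The interneuron markers Pax2 and Mpped2 were higher in interneurons than in MNs by 4.48 (SE 0.127) and 3.90 (SE 0.119) on the log2 scale.

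The libraries labelled cervical replicate 2 and thoracic replicate 2 go against their labels. The Hoxc5 feature in skeletal MNs was at 16.1, 82.5 and 15.6 CPM in cervical replicates 1 to 3 and at 101, 9.44 and 94.5 CPM in thoracic replicates 1 to 3. The library labelled cervical replicate 2 lay near the other thoracic libraries, and the library labelled thoracic replicate 2 lay below every other library. In visceral MNs Hoxc5 was at 42.2, 78.3 and 49.5 CPM in the cervical libraries and at 93.8, 32.7 and 97.2 CPM in the thoracic libraries. In interneurons it was at 14.0, 50.9 and 9.28 CPM in the cervical libraries and at 56.4, 7.23 and 48.1 CPM in the thoracic libraries. Both classes showed the same crossing of the replicate 2 libraries. Gm53, a noncoding RNA of the Hox loci that is no member, was at 0, 23.7 and 0 CPM in cervical interneurons and at 16.9, 0.172 and 16.6 CPM in thoracic ones. The makeup of the libraries crossed as well. Skeletal MNs made up 34.7, 22.2 and 41.1% of the nuclei of cervical replicates 1 to 3. The same share in thoracic replicates 1 to 3 was 17.3, 39.4 and 14.0%. An exchange of these labels was not tested by any measure outside these files. The labels are kept as given. Tests of members and of the other lists are given with and without these libraries, and sums by paralog group and the scaling by median of ratios with all libraries only.

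Some members share bases with another gene model on the same strand, which limits what a value can be assigned to. Of the 11 genes not analysed, 8 are covered fully by another model. Of the 28 members none is covered fully and 6 are covered in part. The Hoxc5 model (chr15:102967443-103017429, + strand, GRCm38) contains all of Hoxc9, Hoxc8 and Hoxc6 and overlaps Hoxc10, so 60.5% of its bases are shared and its values cannot be assigned to Hoxc5 alone. The Hoxd11 model (chr2:74679557-74687016, + strand) shares 47.9% of its bases with Gm28309, and the Hoxd10 model shares 71.4% with it, so their values too cannot be assigned to those genes alone. The others are Hoxd3 (98.6% shared), Hoxc10 (87.3%) and Hoxa2 (61.0%). Hoxa7 (chr6:52214491-52221854, - strand) and Hoxa9 (chr6:52223100-52231089, - strand) share none. The authors' annotation may be of another release.

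A block of 462 features at the end of the table is listed at 0 in every cervical and thoracic nucleus, and 9 members are in it: Hoxd10, Hoxa11, Hoxc11, Hoxd11, Hoxc12, Hoxa13, Hoxb13, Hoxc13 and Hoxd13. For these, 0 in the rostral regions is how the file lists them and not a measured limit, so no fold is given against those regions. Hoxd13 is at 0 in every nucleus of every region.

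**Figure D1:**
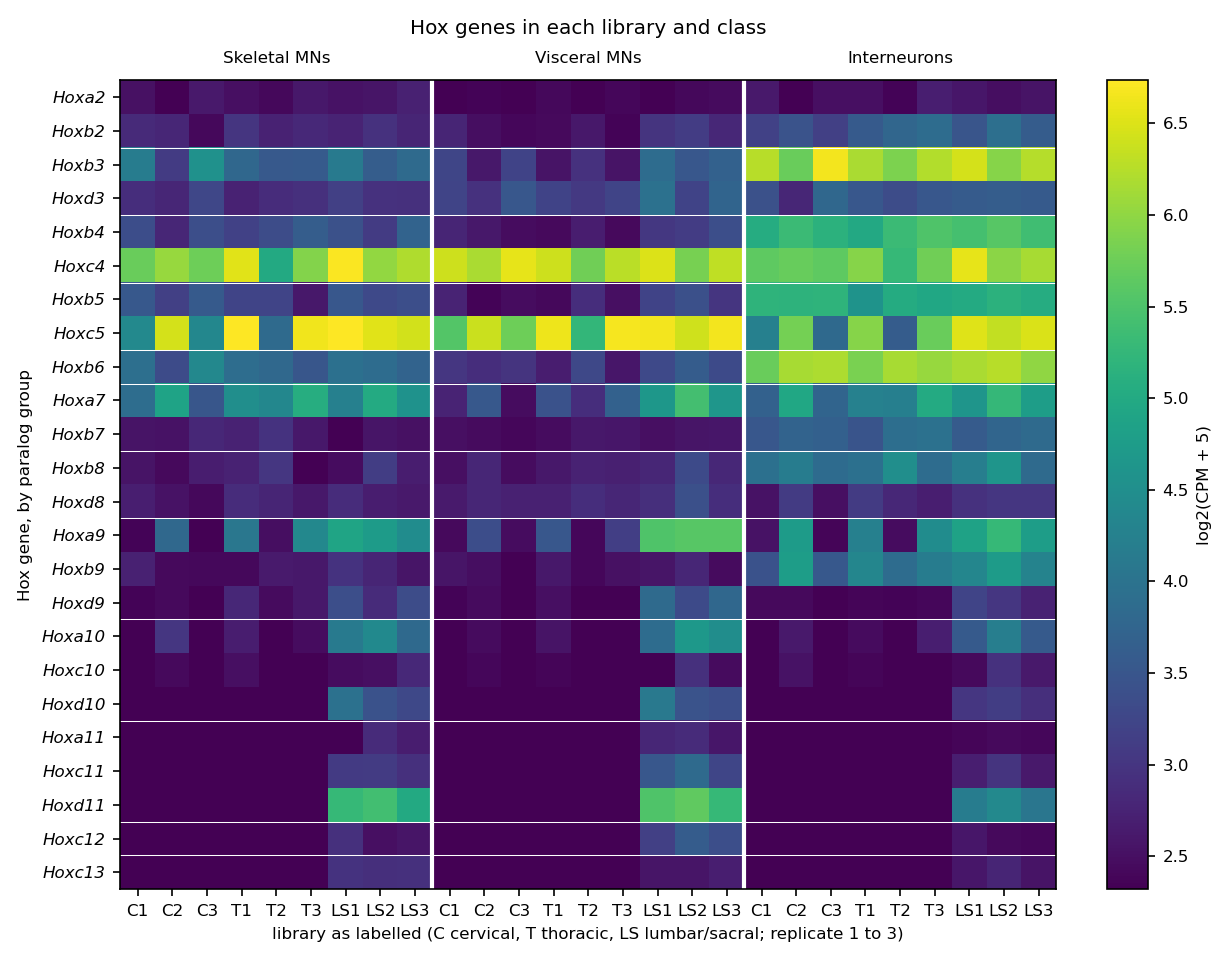
Level of the 24 members with a value in at least 25 nuclei, in 27 sums of a library and class, as log2 of CPM plus 5, with members in order of paralog group. Columns are libraries as labelled (C cervical, T thoracic, LS lumbar/sacral, replicates 1 to 3), and the Hoxb3 to Hoxb6 rows are brightest in interneurons, the lowest rows in lumbar/sacral libraries.

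By paralog group, groups 10 to 13 were higher in each lumbar/sacral library than in each rostral one, in all 3 classes. The 11 members of groups 10 to 13 summed to 80.1 ± 12.9 CPM (SD, 3 libraries) in lumbar/sacral visceral MNs, against 0.253 ± 0.438 CPM in cervical and 0.362 ± 0.627 CPM in thoracic ones. In skeletal MNs the sum was 62.3 ± 10.0, 1.18 ± 2.04 and 0.855 ± 1.06 CPM in the same order, and in interneurons 31.6 ± 9.67, 0.658 ± 1.14 and 0.726 ± 0.743 CPM. Since 9 of the 11 are listed at 0 in the rostral regions, those sums rest on Hoxa10 and Hoxc10 there. Part of the gap therefore follows from the listing and is no measured difference. Hoxa10, which has measured values in all regions, is given below. The 5 members of groups 8 and 9 summed to 57.8 ± 2.30 CPM in lumbar/sacral visceral MNs, against 5.46 ± 4.22 and 7.89 ± 3.08 CPM in cervical and thoracic ones. In skeletal MNs they were at 30.8 ± 5.05, 5.75 ± 4.67 and 14.9 ± 6.51 CPM in the same order. In interneurons they were at 64.3 ± 15.4, 32.2 ± 25.2 and 38.4 ± 7.20 CPM, and there the library labelled cervical replicate 2 (61.2 CPM) passed 2 of the 3 lumbar/sacral ones. The 7 members of groups 4 to 7 were at 203 ± 14.0, 144 ± 12.9 and 153 ± 49.8 CPM in visceral MNs, 208 ± 25.4, 126 ± 46.9 and 165 ± 80.9 CPM in skeletal MNs, and 321 ± 14.9, 215 ± 43.6 and 230 ± 34.5 CPM in interneurons. The 5 members of groups 1 to 3 were at 85.7 ± 11.5, 82.7 ± 26.7 and 79.0 ± 10.6 CPM in lumbar/sacral, cervical and thoracic interneurons and at 16.3 ± 2.90, 17.0 ± 8.73 and 12.8 ± 1.39 CPM in skeletal MNs, within the spread of the libraries. In visceral MNs they were higher in the lumbar/sacral libraries, at 19.2 ± 4.61 CPM against 8.74 ± 3.63 and 6.32 ± 0.762 CPM.

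In visceral MNs, lumbar/sacral libraries had far more Hoxa9 and Hoxa7 than cervical and thoracic libraries, and they held Hoxd11, which is listed at 0 elsewhere. Hoxa7 belongs to the trunk groups, Hoxa9 to the group that starts in the trunk and runs to the tail, and Hoxd11 to the posterior groups known from the lumbosacral cord and the limb. Hoxa7 and Hoxa9 were higher in each lumbar/sacral library than in each of the 6 rostral ones. Hoxc4 and the Hoxc5 feature were tested and not called.

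Hoxa9 in visceral MNs was at 0.407, 5.31 and 0.535 CPM in cervical replicates 1 to 3, 6.41, 0.277 and 3.85 CPM in thoracic replicates 1 to 3 and 41.0, 43.0 and 43.3 CPM in lumbar/sacral replicates 1 to 3. The lumbar/sacral libraries lay close together, and the highest rostral library was thoracic replicate 1. Hoxa7 was at 1.76, 6.68 and 0.535 CPM in the cervical, 5.76, 2.49 and 7.95 CPM in the thoracic and 20.3, 37.5 and 19.9 CPM in the lumbar/sacral libraries. Replicate 2 was the highest of the lumbar/sacral group, and no rostral library reached it or the other 2. Hoxd11 was at 41.0, 45.3 and 33.8 CPM in the lumbar/sacral libraries and is listed at 0 in the rest. In the fit of all genes by limma, which tests each gene over the 9 sums, the lumbar/sacral value of Hoxa9 was higher than the mean of the other regions by 2.68 on the log2 scale (SE 0.290, adjusted p 0.00121). For Hoxa7 the difference was 1.77 (SE 0.303, adjusted p 0.0118). A gene is called when p, adjusted over all genes tested, is under 0.05. Of 10031 genes 428 were called, or 4.27%, and of the 5 members tested 3 were, Hoxd11 being the third. The call of Hoxd11 follows from its listing at 0, here and in the other classes, and tests no difference between regions. With 1 library left out in turn, 160 to 471 genes and 0 to 3 members were called. The median log2 difference was 1.77 over the 5 members and 0.06 over all genes. Testing asked for 10 CPM in at least 3 sums, and as there are 3 lumbar/sacral sums a member high only there had to differ to be tested, so these counts are no support by themselves. Without the libraries labelled cervical and thoracic replicate 2, 464 of 9640 genes were called, or 4.81%, and the same 3 members were among them, Hoxa9 at 2.68 (SE 0.168, adjusted p 0.000474) and Hoxa7 at 1.82 (SE 0.251, adjusted p 0.00764). With the pool of mice as a further term 737 genes were called, the same 3 members among them.

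The makeup of visceral MNs differs between regions, and it moved with these genes. Cluster V8 held 225, 116 and 122 nuclei in lumbar/sacral replicates 1 to 3, but 3, 1 and 0 in the cervical and none in the thoracic libraries. With equal weight for each of the 5 clusters that have at least 10 nuclei in every library (V1, V2, V3, V4 and V7, so without V5, V6, V8, V9 and V10), Hoxa9 and Hoxd11 kept their calls and Hoxa7 did not, at a log2 difference of 1.61 (adjusted p 0.0792, the largest of its alternatives), and 96 genes were called in all. Fbn2, a visceral marker, was higher by 1.29 (SE 0.184, adjusted p 0.00459) in lumbar/sacral visceral MNs, and Zeb2, another, was lower, at -1.09 (SE 0.128, adjusted p 0.0018). Of 4 astrocyte markers 1 was tested and it was higher, Slc1a2 at 0.94 (SE 0.188, adjusted p 0.0254). The 3 were called without both libraries labelled replicate 2 as well, at 1.18, -1.17 and 1.03. The 4 together summed to 19.1, 21.9 and 20.3 CPM in cervical, 21.4, 27.7 and 16.8 CPM in thoracic and 47.8, 40.1 and 31.3 CPM in lumbar/sacral visceral MNs, with Slc1a2 the most abundant in each library and 1 of the 4 at 0 in cervical replicate 1 and lumbar/sacral replicates 1 and 3. These sums follow Slc1a2. Gja1, another of the 4, was at most 0.978 CPM in the lumbar/sacral and at least 3.05 CPM in the thoracic libraries, so it did not move with Slc1a2. The part of these markers in the Hox values was not tested.

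The promoters of the 3 genes called in this comparison are shown because the genes are high together in the same libraries. RefSeq (GRCm38.p6) gives 1 start for Hoxa7 and Hoxa9 and 2 for Hoxd11, and 24 promoters of 22 of the annotated Hox genes matched by symbol. Each sequence is the 250 bases before the start, 5′ to 3′ on the gene's strand: chr6:52218574-52218823 and chr6:52227371-52227620 on the - strand, then chr2:74679308-74679557 and chr2:74682073-74682322 on the + strand. Capitals mark matches, on either strand, to TTTATG (read by CDX factors), TGATTNAT (read by PBX with HOX) and TAATTA (a homeodomain core).
Hoxa7: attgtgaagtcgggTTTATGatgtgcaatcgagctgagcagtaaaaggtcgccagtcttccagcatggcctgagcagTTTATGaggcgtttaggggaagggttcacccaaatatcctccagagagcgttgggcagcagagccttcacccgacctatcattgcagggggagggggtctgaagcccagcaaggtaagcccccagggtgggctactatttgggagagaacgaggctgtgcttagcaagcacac
Hoxa9: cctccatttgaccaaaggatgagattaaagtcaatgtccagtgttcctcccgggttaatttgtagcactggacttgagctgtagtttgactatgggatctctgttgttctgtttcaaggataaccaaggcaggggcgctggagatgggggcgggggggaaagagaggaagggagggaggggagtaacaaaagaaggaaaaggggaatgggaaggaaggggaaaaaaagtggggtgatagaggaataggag
Hoxd11, first start: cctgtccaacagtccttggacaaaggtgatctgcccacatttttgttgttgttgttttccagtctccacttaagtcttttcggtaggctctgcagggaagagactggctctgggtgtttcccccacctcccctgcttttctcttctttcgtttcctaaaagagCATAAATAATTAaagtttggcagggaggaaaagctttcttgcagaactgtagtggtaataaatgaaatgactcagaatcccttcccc
Hoxd11, second start: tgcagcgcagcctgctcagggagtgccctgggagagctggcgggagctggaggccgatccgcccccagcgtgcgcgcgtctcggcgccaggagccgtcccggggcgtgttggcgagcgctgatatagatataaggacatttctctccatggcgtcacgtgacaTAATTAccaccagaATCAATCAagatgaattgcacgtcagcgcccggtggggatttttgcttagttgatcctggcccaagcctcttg
TTTATG occurs in 10.8% of 32851 promoters of this length and in 5 of the 24 Hox promoters, with 2 matches in that of Hoxa7 and 1 in the first of Hoxd11. TAATTA occurs in 4.84% of all promoters and in both of Hoxd11. In the first of these a reverse match to TTTATG and the TAATTA match abut without overlap. TGATTNAT occurs in 2.82% of all promoters and in the second of Hoxd11. The Hoxa9 window holds none of the 3. A match is a string of letters and does not show binding, and the motifs were chosen after the values were seen.

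**Figure D2:**
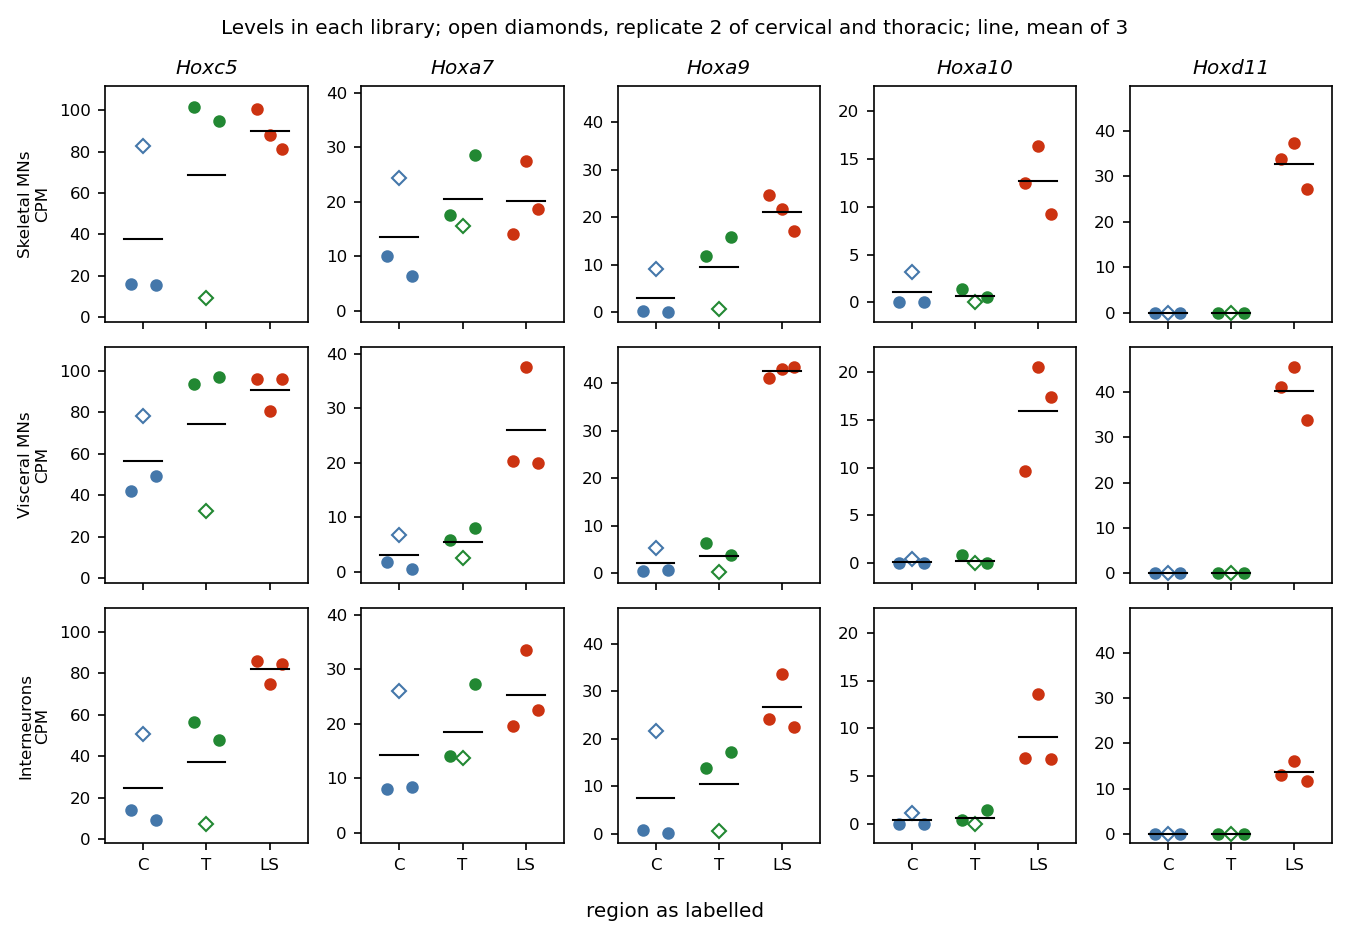
CPM of Hoxc5, Hoxa7, Hoxa9, Hoxa10 and Hoxd11 in each library, by region as labelled and by class, with the mean of 3 as a line. Open diamonds are the libraries labelled cervical and thoracic replicate 2, which lie on the far side of their groups for Hoxc5 and Hoxa9, and Hoxd11 is above 0 in lumbar/sacral libraries only, where the rest are listed at 0.

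In skeletal MNs, no member that passed the filter and has measured rostral values was called between lumbar/sacral and rostral libraries. Hoxd11 was at 33.8, 37.3 and 27.2 CPM in lumbar/sacral replicates 1 to 3 and is listed at 0 elsewhere. Nuclei with a Hoxd11 value made up 15.8 ± 4.18% of lumbar/sacral skeletal MNs (SD, 3 libraries) and 6.07 ± 1.87% of interneurons. After each nucleus was thinned to a total of 4600, since corrected totals differed between libraries, the shares were 12.7 ± 2.19 and 6.07 ± 1.19%. Hoxa9 was at 0.145, 9.04 and 0 CPM in the cervical, 11.9, 0.629 and 15.8 CPM in the thoracic and 24.7, 21.7 and 17.0 CPM in the lumbar/sacral libraries. The lumbar/sacral libraries were above all others, and the cervical and thoracic libraries labelled replicate 2 lay apart from the other 2 of their groups. Of 9999 genes 1 was called, or 0.01%, and it was Hoxd11, 1 of 7 members tested, a call that rests on its listing at 0. Hoxa9 differed by 1.46 (SE 0.466, adjusted p 0.9) and Hoxc5 by 1.16 (SE 0.679, adjusted p 0.9). The median over the 7 members was 0.48, against 0.12 over all genes, which scaling by the median of ratios moved to -0.01. Without the libraries labelled cervical and thoracic replicate 2, 1 of 9774 genes was called, or 0.0102%, again Hoxd11, with Hoxa9 at 1.41 (SE 0.201, adjusted p 0.274). With the pool as a further term 4 genes were called, Hoxd11 among them. Leaving out any 1 lumbar/sacral library leaves Hoxd11 with too few sums to be tested.

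In interneurons too, no such member was called with all libraries. Hoxd11 was at 13.1, 16.1 and 11.7 CPM in lumbar/sacral replicates 1 to 3 and is listed at 0 elsewhere. Hoxa9 was at 0.778, 21.7 and 0.221 CPM in the cervical, 13.9, 0.516 and 17.2 CPM in the thoracic and 24.2, 33.7 and 22.5 CPM in the lumbar/sacral libraries. The library labelled cervical replicate 2 came close to the lowest lumbar/sacral one. Hoxc5 was at 86.2, 75.0 and 84.6 CPM in lumbar/sacral interneurons, above every rostral library given earlier. Of 9805 genes 5 were called, or 0.051%, and 1 of 11 members, Hoxd11 (adjusted p 0.0286), whose call again rests on its listing at 0. The call was lost at equal depth (adjusted p 0.0958), which thinned nuclei and also left out part of lumbar/sacral replicates 1 and 3. It was lost too without cervical replicate 1 (0.0706) or 3 (0.0659), or without thoracic replicate 1 (0.0521), 2 (0.0548) or 3 (0.0837). The largest adjusted p of its alternatives was 0.296. The median over the members was 0.43, against 0.01 over all genes. All genes called were 2 higher and 3 lower, or 2 higher and 1 lower with scaling by the median of ratios. Without both libraries labelled replicate 2, 13 of 9379 genes were called, or 0.139%, and 3 of 11 members. With the pool as a further term 44 genes were called, Hoxd11 again the 1 member. The 3 without those libraries were Hoxc5 at 1.50 (SE 0.136, adjusted p 0.0345), Hoxa9 at 1.57 (SE 0.184, adjusted p 0.0456) and Hoxd11. These libraries were dropped because their Hox values cross, so the smaller spread of Hoxc5, whose SE was 0.563 with all libraries, and of Hoxa9 follows from that choice.

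Several posterior members were at low level and were not tested in these fits, so they are given by value. Hoxa10, a gene of the lumbar cord, was at 12.5, 16.4 and 9.22 CPM in lumbar/sacral skeletal MNs and at most 3.14 CPM in rostral ones, in the library labelled cervical replicate 2. In visceral MNs it was at 9.68, 20.5 and 17.4 CPM against at most 0.869 CPM, and in interneurons at 6.89, 13.6 and 6.83 CPM against at most 1.48 CPM. In each class its lumbar/sacral libraries lay above all rostral ones. With no filter on low values Hoxa10 was called in skeletal MNs at 1.60 (adjusted p 0.035) and in visceral MNs at 1.96 (adjusted p 0.000742). The Hoxd10 feature, of a gene known from lumbar motor neurons, was at 10.7, 5.76 and 4.73 CPM in lumbar/sacral skeletal MNs, 12.3, 5.87 and 5.47 CPM in visceral MNs and 3.13, 3.76 and 2.56 CPM in interneurons. Hoxc12 was at 3.87, 7.17 and 5.47 CPM in lumbar/sacral visceral MNs and at most 2.60 CPM in the other classes. The groups of libraries do not overlap for Hoxc12. Hoxc13, of the most posterior group, was at 2.86, 2.54 and 2.60 CPM in lumbar/sacral skeletal MNs and at 0.968, 0.978 and 1.49 CPM in visceral MNs, so skeletal libraries were the higher. Hoxa13 had a value in 3 nuclei and Hoxb13 in 4. Hoxa2, an anterior member, had a value in 68 nuclei.

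Thoracic against cervical libraries, as labelled, gave no called gene in any class, and without the doubted libraries the Hoxc5 feature was the call in skeletal MNs. With all libraries limma called 0 genes in each class, or 0%, from 9999 tested for skeletal MNs, 10031 for visceral MNs and 9805 for interneurons. At an unadjusted p under 0.05 there were 607, 160 and 189 genes in that order, of which 0, 0 and 1 were members. Hoxc5 differed by 0.67 (SE 0.784, adjusted p 0.773) in skeletal MNs. Without both libraries labelled replicate 2, its 2 thoracic values of 101 and 94.5 CPM stood above its 2 cervical values of 16.1 and 15.6 CPM. The difference was then 2.31 (SE 0.145, adjusted p 0.00828), and it was the only one of 9774 genes called, or 0.0102%, and 1 of 7 members tested. Hoxa9 differed by 1.89 (SE 0.263, adjusted p 0.561) in the same fit and Hoxa7 by 1.08 (SE 0.324, adjusted p 0.784). In visceral MNs Hoxc5 differed by 0.99 (SE 0.149, adjusted p 0.0897), and limma called 0 of 9640 genes (0%), with 527 genes and 3 members at an unadjusted p under 0.05. In interneurons Hoxc5 differed by 1.79 (SE 0.178, adjusted p 0.0769), and limma called 0 of 9379 genes (0%), with 354 genes and 5 members at an unadjusted p under 0.05. Dropping both libraries was chosen because their Hox values cross, so the call for Hoxc5 is a description of the other libraries and not independent of that choice.

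Between classes, interneurons had more of every HoxB gene tested than MNs. HoxB genes lie on chromosome 11 as 1 cluster, from Hoxb2 and Hoxb3, which reach into the hindbrain, to Hoxb9 in the trunk. Hoxb3 was at 47.8 to 95.6 CPM (median 69.8) in the 9 interneuron sums, 3.54 to 18.5 CPM (median 8.82) in skeletal MNs and 0.869 to 9.68 CPM (median 4.28) in visceral MNs. Hoxb6 was at 48.2 to 71.5 CPM (median 65.9) in interneurons, 5.11 to 15.9 CPM (median 9.68) in skeletal MNs and 1.03 to 7.17 CPM (median 3.12) in visceral MNs. For both genes every interneuron sum lay above every MN sum, in all 3 regions. Nuclei with a Hoxb6 value made up 36.3% of interneurons, 7.38% of skeletal MNs and 2.36% of visceral MNs as the mean of 9 libraries, or 24.1, 3.90 and 1.65% after thinning to equal totals.

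Of 11292 genes 5702 were called between interneurons and MNs, or 50.5%, and of 12 members tested 10 were, 7 of them higher in interneurons. Higher were Hoxb3 by 2.69 (SE 0.107, adjusted p 6.99e-15), Hoxb6 by 2.61 (SE 0.0927, adjusted p 1.24e-15), Hoxb4 by 2.26, Hoxb5 by 2.01, Hoxb9 by 1.60, Hoxb8 by 1.40 and Hoxa7 by 0.42 on the log2 scale. Hoxb4, Hoxb5, Hoxb8 and Hoxb9 reached the 10 CPM of the filter in interneurons only, at most 8.28, 6.84, 4.89 and 2.86 CPM in MNs, so they had to be higher there and their number is no support. Lower were Hoxc5 at -0.62 (SE 0.150, adjusted p 0.00159), Hoxc4 at -0.27 (adjusted p 0.0167) and Hoxd11 (adjusted p 0.0168), which has measured values in the lumbar/sacral sums only. The median was 0.91 over the 12 members and -0.04 over all genes. Of all genes 2286 were higher and 3416 lower, or 2950 and 2797 with scaling by the median of ratios. Hoxa9 (0.22, SE 0.170) and Hoxa10 (-0.15, SE 0.0930) were not called. Without both libraries labelled replicate 2 there were 9 called members, as Hoxa7 was lost (adjusted p 0.105). Hoxa7 also lost its call without cervical replicate 2 (0.0609), cervical replicate 3 (0.0744), thoracic replicate 2 (0.0527) or thoracic replicate 3 (0.0569), where its alternatives reach 0.249. Hoxd11 lost its call without lumbar/sacral replicate 1 (0.0706), 2 (0.0696) or 3 (0.0666), where its alternatives reach 0.644. With the pool of mice as a term in place of the library there were 6 called members, the HoxB genes. Markers of other cell types differed as well. The astrocyte marker Slc1a2 was higher in interneurons by 0.98 (SE 0.148, adjusted p 9.93e-06), the excitatory marker Slc17a6 by 0.33 and the inhibitory marker Gad1 by 2.62, and the oligodendrocyte marker Mbp was lower, at -0.72. All 4 kept their calls without both libraries labelled replicate 2, and their part in the Hox values was not tested.

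**Figure D3:**
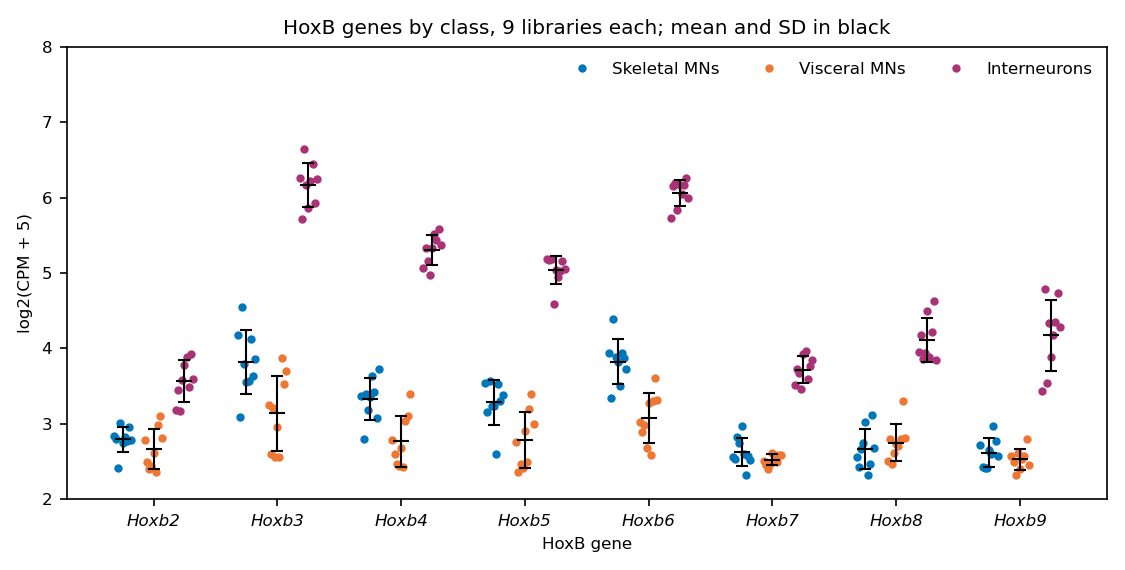
Level of the HoxB genes as log2 of CPM plus 5, each point a library and class, with mean and SD over 9 libraries in black. The interneuron points of Hoxb3, Hoxb4, Hoxb5, Hoxb6, Hoxb8 and Hoxb9 lie above all MN points of the same gene.

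Visceral MNs had less of Hoxb3, Hoxb4, Hoxb5, Hoxb6 and Hoxa7 than skeletal MNs as a mean over the regions. Of 11292 genes 7537 were called, or 66.7%, and of 12 members 7 were, so the members' share is near that of all genes. The lower members were Hoxb6 at -0.75 (SE 0.107, adjusted p 2.68e-06), Hoxa7 at -0.73 (SE 0.179, adjusted p 0.00122), Hoxb3 at -0.68, Hoxb4 at -0.56 and Hoxb5 at -0.50. These sizes depend on the pseudocount, and with 1 in place of 5 that of Hoxb6 was -1.25. Hoxa7 was lower in visceral than in skeletal MNs in the rostral regions, but its mean was higher in the lumbar/sacral libraries, as given below. With the pool in place of the library the 4 HoxB genes kept their calls and Hoxa7 did not (adjusted p 0.0529). The higher ones were Hoxc5 at 0.43 (SE 0.173, adjusted p 0.0344) and Hoxc4 at 0.26 (SE 0.104, adjusted p 0.0336). Hoxc4 was at 26.9 to 99.6 CPM (median 60.2) in skeletal and 50.2 to 89.9 CPM (median 74.6) in visceral MNs, so the classes overlap. The median was -0.05 over the members and 0.04 over all genes. Both Hoxc5 (adjusted p 0.109) and Hoxc4 (adjusted p 0.145) lost their calls without both libraries labelled replicate 2, which left 5 members. Without cervical replicate 1, cervical replicate 3 or thoracic replicate 2, Hoxc5 (0.113, 0.108 and 0.124, where its alternatives reach 0.454) and Hoxc4 (0.105, 0.115 and 0.119, where its alternatives reach 0.145) also lost them, and Hoxc4 did without thoracic replicate 3 (0.0702). Markers of other cell types were also lower in visceral MNs, the oligodendrocyte marker Mbp at -0.97 (SE 0.142, adjusted p 4.09e-06) and the microglia marker P2ry12 at -0.52 (SE 0.109, adjusted p 0.000272), while of the inhibitory markers Gad2 was higher by 1.01 and Gad1 lower, at -0.30. The 4 kept their calls without both libraries labelled replicate 2.

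The rise toward the lumbar/sacral cord was larger in visceral than in skeletal MNs for Hoxa7, Hoxa9 and Hoxb3. Hoxa7 was at 25.9 ± 10.0 CPM (SD, 3 libraries) in lumbar/sacral visceral MNs, against 2.99 ± 3.25 and 5.40 ± 2.75 CPM in cervical and thoracic ones. In skeletal MNs the same values were 20.1 ± 6.80, 13.6 ± 9.53 and 20.6 ± 6.94 CPM, which overlap. The test of the difference between these region effects called 1099 of 11292 genes, or 9.73%, and 3 of 12 members. Hoxa7 had a difference of 1.53 (SE 0.146, adjusted p 2.92e-07), Hoxa9 of 1.22 (SE 0.291, adjusted p 0.00832) and Hoxb3 of 0.76 (SE 0.179, adjusted p 0.0076). The median was 0.41 over the members and -0.06 over all genes. Of all genes 513 had a higher and 586 a lower effect in visceral MNs, or 632 and 447 with scaling by the median of ratios. Hoxb3 in visceral MNs was at 9.68, 6.52 and 7.96 CPM in the lumbar/sacral libraries, 4.47, 1.06 and 4.28 CPM in the cervical and 0.869, 2.77 and 0.898 CPM in the thoracic ones. The lumbar/sacral libraries were above the rest. Without both libraries labelled replicate 2 there were 4 called members, with Hoxb6 added at 0.66 (SE 0.183, adjusted p 0.0302). Hoxb3 lost its call without lumbar/sacral replicate 2 (0.0503, where its alternatives reach 0.162) and Hoxa9 without lumbar/sacral replicate 3 (0.0708, where its alternatives reach 0.53). With the pool in place of the library 543 genes were called, and Hoxa7 was the 1 member among them. In the same test the astrocyte marker Slc1a2 was called at 1.12 (SE 0.204, adjusted p 0.000836), the visceral marker Fbn2 at 0.93 and the skeletal marker Prph at -1.30. They were at 1.23, 0.72 and -1.25 without both libraries labelled replicate 2, all called, with the visceral marker Zeb2 added at -1.72.

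Between interneurons and skeletal MNs no region effect of a member that passed the filter and has measured rostral values was called as different. The test called 79 of 11292 genes, or 0.7%, and 1 of 12 members, Hoxd11, for which it only compares the lumbar/sacral levels of the classes. Hoxd11 was also called without both libraries labelled replicate 2, and with the pool in place of the library 11 genes were called, Hoxd11 among them. Its lumbar/sacral levels were 13.6 ± 2.25 CPM (SD, 3 libraries) in interneurons and 32.8 ± 5.15 CPM in skeletal MNs, and the libraries do not overlap. The median was 0.06 over the members and -0.10 over all genes. Of all genes 24 had a higher and 55 a lower effect in interneurons, or 39 and 29 with scaling by the median of ratios, which moved the median of all genes to 0.02.

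Within the lumbar/sacral cord, clusters of 1 class differed more in Hoxd11 than in Hoxa9. These levels are a description, since the clusters were drawn from the same genes. In visceral MNs Hoxd11 was at 63.5 ± 18.0 CPM (SD, 3 libraries) in cluster V8, 57.8 ± 18.3 CPM in V2, 41.4 ± 10.7 CPM in V5 and 29.5 ± 9.14 CPM in V3. It was at 4.41 ± 3.93 CPM in V1, 4.39 ± 3.86 CPM in V7 and 1.94 ± 1.70 CPM in V4. In lumbar/sacral replicates 1 to 3, V1 held 23, 26 and 24 nuclei, V7 held 20, 24 and 26, and V4 held 67, 54 and 39. A level of a few CPM in these clusters rests on very few counts, so it and its SD are rough. The first 4 clusters and the last 3 do not overlap beyond their spread, while neighbours within each set do. Hoxa9 was high in V4 (48.3 ± 6.30 CPM) and V7 (59.1 ± 26.3 CPM), where Hoxd11 was low, as well as in V5 (61.5 ± 27.8 CPM) and V8 (51.7 ± 3.55 CPM). Hoxa10 was at 2.82 ± 2.68 CPM in V4 and 4.39 ± 3.86 CPM in V7, against 21.5 ± 6.93 CPM in V8. Clusters V6, V9 and V10 held fewer than 10 nuclei in at least 1 lumbar/sacral library and are left out. In skeletal MNs Hoxd11 was at 43.6 ± 3.76 CPM in S3, 26.5 ± 11.4 CPM in S2 and 21.4 ± 2.21 CPM in S1, of which S2 and S1 do not differ beyond their spread.

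**Figure D4:**
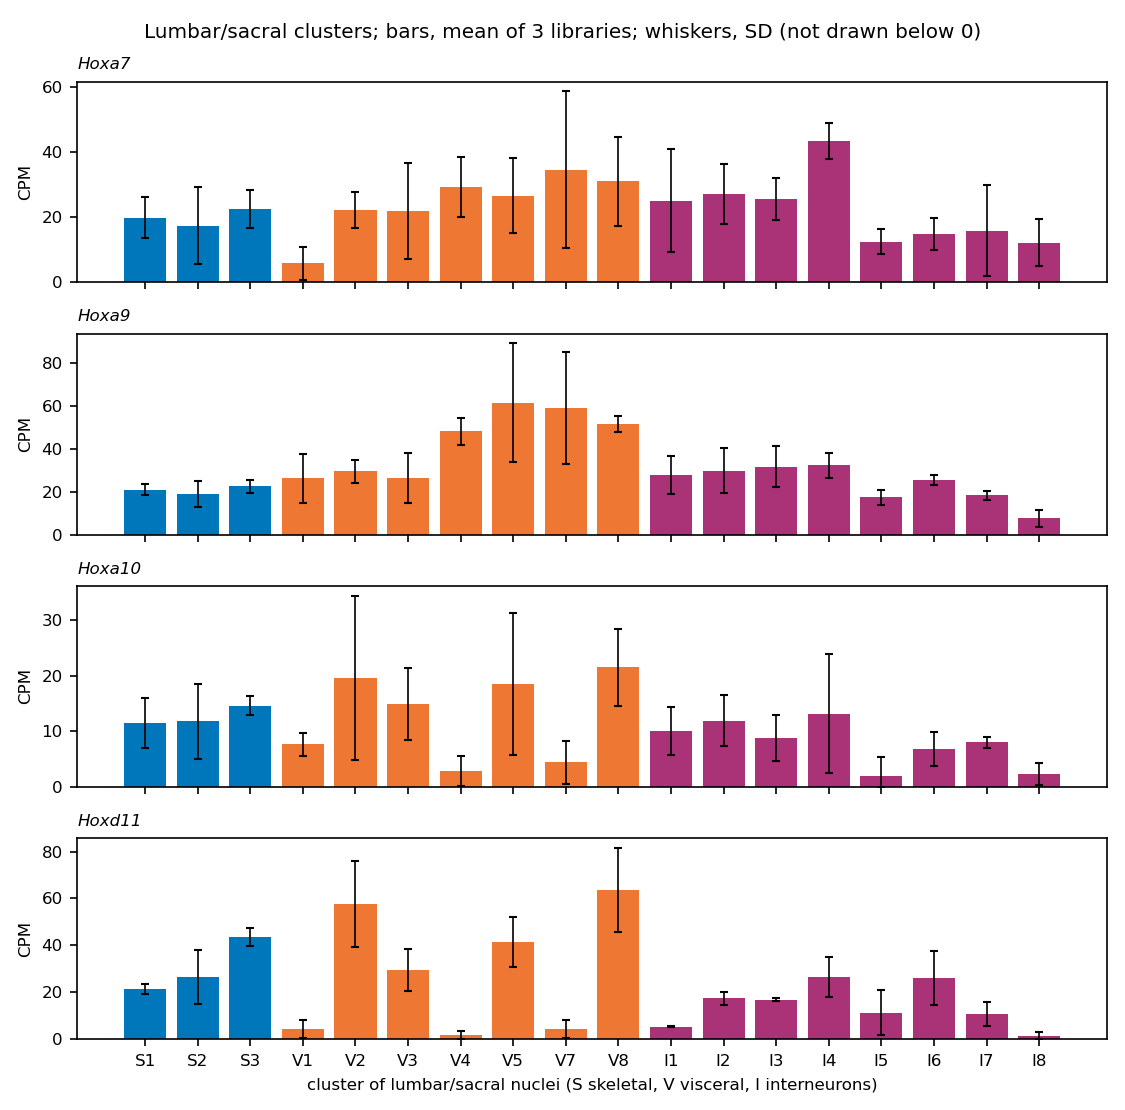
CPM of Hoxa7, Hoxa9, Hoxa10 and Hoxd11 in the clusters of lumbar/sacral nuclei that 3 libraries hold, as mean (bars) and SD (whiskers, not drawn below 0). Hoxd11 bars of V1, V4 and V7 are below 5 CPM and rest on very few counts, while their Hoxa9 bars are at 26.3 to 59.1 CPM.

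Among interneuron clusters Hoxb3 and Hoxb9 had their lowest lumbar/sacral means in I5 and I6. Lumbar/sacral Hoxb3 was at 125 ± 19.0 CPM in I7, 93.1 ± 1.70 CPM in I8, 83.5 ± 28.5 CPM in I1, 81.1 ± 1.85 CPM in I2, 70.0 ± 10.3 CPM in I4, 49.4 ± 14.4 CPM in I3, 30.2 ± 9.74 CPM in I5 and 21.6 ± 10.2 CPM in I6. Neighbours in this order do not differ beyond their spread, apart from I7 and I8. Hoxb9, the most posterior HoxB gene tested, was at 1.93 ± 3.34 CPM in lumbar/sacral I5 and 0.839 ± 1.45 CPM in I6, against 17.9 ± 5.51 CPM in I1 and 25.6 ± 6.64 CPM in I2. Hoxa9 was at 17.4 ± 3.58 CPM in lumbar/sacral I5 and 25.4 ± 2.41 CPM in I6, near the 27.9 ± 8.82 CPM of I1. Hoxd11 was near 0 in I8, at 1.11 ± 1.92 CPM, and at 26.1 ± 11.5 CPM in I6. In lumbar/sacral replicates 1 to 3, I5 held 71, 50 and 56 nuclei, I6 held 56, 58 and 57, and I8 held 72, 41 and 46. Levels of a few CPM in these clusters rest on very few counts.

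Genes that act with the Hox genes, or lie beside them, were called between regions in visceral MNs, where 4.27% of all genes were. Among the Hox cofactors Meis1 was lower in lumbar/sacral visceral MNs, at -1.03 (SE 0.159, adjusted p 0.00677). Meis1 was at 419, 345 and 342 CPM in the lumbar/sacral libraries and at 631 CPM or more in every rostral one. Of 4 regulators of Hox genes tested 2 were higher, the retinoic acid receptor gene Rarb at 1.77 (SE 0.186, adjusted p 0.0011) and Rxrg, for its partner, at 1.22 (SE 0.192, adjusted p 0.00768). Rarb was at 45.8, 37.8 and 44.3 CPM in the lumbar/sacral libraries and at most 12.8 CPM in rostral ones. Beside the Hox clusters, 2 of 9 genes tested were higher, Skap1 at 1.16 and Skap2 at 0.61. Rxrg and Skap1 were at most 4.49 and 4.61 CPM in rostral libraries, so they passed the filter through the lumbar/sacral sums only and had to be higher, and these counts are no support. Of 5 motor column and pool genes tested 2 were higher, the receptor genes Ret at 1.71 and Gfra1 at 1.45. Without both libraries labelled replicate 2, Meis1 (-1.14), Rarb (1.75), Rxrg (1.20), Skap1 (1.19), Ret (1.62) and Gfra1 (1.37) kept their calls, Skap2 lost its call, and Meis2 at -0.83 and Isl1 at 1.52 were added. None of 18 Polycomb and Trithorax genes, which keep Hox genes silent or active, was called, and the 1 noncoding RNA of the Hox loci tested was not. The medians of these lists, in the order given and leaving out the cofactors and the noncoding RNA, were 0.62, -0.02, 1.45 and 0.06, against 0.06 over all genes. With all libraries, none of these lists had a called gene between lumbar/sacral and rostral libraries in skeletal MNs or interneurons. Gm53 was called in interneurons at 1.51 (SE 0.160, adjusted p 0.0411) without both libraries labelled replicate 2. As its values cross in those libraries, its smaller spread follows from dropping them and the call is no support. The region effect was larger in visceral than in skeletal MNs for Rarb by 1.87 (SE 0.150, adjusted p 2.98e-08). Of 8 motor column and pool genes 3 were called as larger too, Isl1 by 1.71, Ret by 1.63 and Gfra1 by 1.36. Without those libraries the differences of Rarb, Isl1, Ret and Gfra1 were 1.93, 1.68, 1.70 and 1.44, all called. Over all genes 9.73% were called in that test.

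Between visceral and skeletal MNs, where 66.7% of all genes were called, 8 of 9 cofactors were higher in visceral MNs, with Meis1 at 2.45 (SE 0.148, adjusted p 4.24e-12) and Pbx3 at 2.21 (SE 0.0768, adjusted p 5.41e-16) ahead of Meis2 at 1.08. Their median was 0.77, against 0.04 over all genes. Of 18 Polycomb and Trithorax genes 13 were higher and 1 lower, with Cbx7 at 1.26 and Phc1 at 0.95 higher and Ezh2 lower at -0.57, and a median of 0.29. Of 6 regulators 3 were lower, Rara at -1.15, Rarb at -1.05 and Rarg at -0.78. Between interneurons and MNs, where 50.5% of all genes were called, 5 of 5 noncoding RNAs of the Hox loci tested were higher in interneurons, Gm53 by 1.51 (SE 0.241, adjusted p 1.89e-05), Hoxb5os by 1.48 (SE 0.139, adjusted p 1.09e-08) and Hoxb3os by 0.96 (SE 0.116, adjusted p 4.46e-07), with a median of 0.96 against -0.04 over all genes. In MNs these 3 were at most 1.30, 6.86 and 12.1 CPM and reached 10 CPM in fewer than 3 sums, so they passed the filter through interneurons and their number is no support. Among the cofactors Pknox2 was higher there by 1.59 (SE 0.0822, adjusted p 6.57e-13) and Pbx4 by 0.47 (SE 0.0805, adjusted p 4.77e-05). The genes named in these class comparisons kept their calls without both libraries labelled replicate 2, where 14 Polycomb and Trithorax genes were higher and 2 lower, and 3 of the 5 noncoding RNAs were higher.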

How the data were processed

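The values were made by the authors, who aligned reads to mm10 with Cell Ranger 3.1.0 and corrected the counts for depth with SCTransform in Seurat. Their methods describe the regions as handled apart before they were joined, so the correction may differ between regions, or between libraries. As deposited they are corrected counts, read here as a score of each gene in each nucleus. Class, cluster and region labels were taken from the deposited annotation. Values were summed by library and class, scaled to CPM and written as log2(CPM + 5). Genes that reached 10 CPM in 3 or more sums were tested with limma 3.58.1 (trend) in R 4.3.3, with p adjusted by Benjamini-Hochberg over all genes tested. Comparisons between classes, and of region effects between classes, carried a term for the library. Tables were made in Python 3.11.15. The fits were tried on simulated data with known changes.

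Every member called with the filter and all libraries was named, with at most 4 of the tested members not called. Of each other list, at most 3 called genes were named. Members and lists were chosen with earlier results of these data known, and Hoxa10, Hoxd10, Hoxc12, Hoxc13 and the clusters were singled out after their values were seen. The other lists were Hox cofactors, noncoding RNAs of the Hox loci, genes next to the Hox clusters, regulators of Hox genes, Polycomb and Trithorax genes, motor column and pool genes and markers of cell types. Libraries of 1 replicate number come from 1 pool of mice, which pairs them. Deviations from the region mean correlated within a pool with a median r of 0.65 to 0.75 by class (lowest -0.22), and between pools with a median of -0.45 to -0.40. Deviations from a mean of 3 libraries sum to 0, so the negative r between pools follows in part from the method. Cervical replicate 3 had a negative r with both other libraries of its pool in every class. In skeletal MNs it was -0.22 with thoracic and -0.12 with lumbar/sacral replicate 3, but 0.42 and 0.46 with replicate 1 of those regions. Its place in the pairing was not tested further. Alternatives were other pseudocounts, filters and scaling, equal depth, equal cluster weight, the pool as a term, each library left out, and both doubted libraries left out. Equal depth here means equal corrected totals and not equal sequencing depth. At equal depth 1384 nuclei (8.63%) under a total of 4600 were left out. All of them were lumbar/sacral: replicate 1 of that region lost 44.1% of its nuclei, replicate 3 lost 13.6% and replicate 2 lost 0%. No cervical or thoracic nucleus was left out, so this alternative removed nuclei from only 1 side of the lumbar/sacral comparisons. Some results on single genes are not reported here.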

Additional observations from a re-analysis of the deposited data

Results flagged for a closer look

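The lumbar/sacral effect differed between classes by a test of that difference for 3 members with measured rostral values. It was larger in visceral than in skeletal MNs for Hoxa7 by 1.53 on the log2 scale, for Hoxa9 by 1.22 and for Hoxb3 by 0.76. Only Hoxa7 kept its call in all 16 alternatives that tested it, while Hoxa9 and Hoxb3 each lost theirs in 3, the pool in place of the library among them. With the strict filter none of the 3 was tested. In the same test the astrocyte marker Slc1a2 was called at 1.12, Fbn2 at 0.93 and Prph at -1.30. The clusters that make up visceral MNs differ between regions, and the part of this and of the markers in the differences was not tested. For Hoxd11 the same test in interneurons minus skeletal MNs gave -1.02, which is no region effect. Its rostral values are listed at 0, so the value restates its lower lumbar/sacral level in interneurons and depends on the pseudocount.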

How the results depend on the processing

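Of 410 values of called members under alternatives, over 26 pairs of gene and comparison, 367 kept their call and direction, 43 lost the call and 0 reversed. Alternatives in which a member was not tested, such as the strict filter for many, are not among these values. The counts of called members moved as follows. Between lumbar/sacral and rostral skeletal MNs the 1 called member became 0 with a pseudocount of 1, 5 with no filter and 0 with the strict filter, and 0 to 1 with 1 library left out. In visceral MNs 3 became 11 with no filter and 0 with the strict filter, and 0 to 3 with 1 library left out. In interneurons 1 became 0 with a pseudocount of 1, 2 with no filter, 0 with the strict filter, 3 without both doubted libraries and 0 at equal depth, and 0 to 1 with 1 library left out. Between thoracic and cervical skeletal MNs 0 became 1 without both doubted libraries. Between visceral and skeletal MNs 7 became 2 with the strict filter and 4 with the replicate block in place of the library. Between interneurons and MNs 10 became 2 with the strict filter and 6 with the block. For the lumbar/sacral effect in visceral minus skeletal MNs 3 became 7 with no filter, 0 with the strict filter and 1 with the block. For that in interneurons minus skeletal MNs 1 became 2 with no filter and 0 with the strict filter. The strict filter, and leaving out a lumbar/sacral library, take members that are low in the other sums out of testing, and with no filter 26 or 27 members are tested. Over all genes, the 1 call in lumbar/sacral against rostral skeletal MNs became 12 with no filter. The 428 in visceral MNs became 160 to 471 with 1 library left out. The 5 in interneurons became 2 with a pseudocount of 1, 2 with the strict filter, 3 with scaling by median of ratios, 0 at equal depth, 1 with equal cluster weight and 1 to 9 with 1 library left out. The 1099 of the visceral minus skeletal effect became 720 at equal depth and 682 to 1148 with 1 library left out. The 79 of the interneuron minus skeletal effect became 52 with a pseudocount of 1, 38 with the strict filter, 46 without both doubted libraries, 31 at equal depth and 14 to 59 with 1 library left out. The cause of the other moves was not tested. With the block 6310 genes were called between visceral and skeletal MNs, 4445 between interneurons and MNs and 0 between thoracic and cervical libraries of each class.

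Other calls were lost with a changed value. Between visceral and skeletal MNs, Hoxc4 was at an adjusted p of 0.0572 with scaling by median of ratios and 0.0729 at equal depth, and Hoxc5 at 0.0527 with no filter. In the visceral minus skeletal effect, Hoxb3 was at 0.0923 with a pseudocount of 20 and at 0.162 with the block, and Hoxa9 at 0.0565 at equal depth and 0.530 with the block. Between interneurons and MNs, Hoxc4 lost its call with scaling by median of ratios and, like Hoxc5 (0.244), with the block. The sums hold 3 pools in all, so sex and pool cannot be told apart. No nucleus is an independent sample here. Members listed at 0 in the rostral libraries, Hoxd11 among them, have no measured limit there.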

Other observations

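Noncoding RNAs of the Hox loci varied between libraries of the same region. With all libraries, none of those tested was called between regions in any class. Hoxd3os1 in visceral MNs was at 8.00, 30.0 and 9.90 CPM in cervical replicates 1 to 3, 9.24, 17.2 and 47.5 CPM in thoracic replicates 1 to 3 and 15.2, 33.9 and 62.7 CPM in lumbar/sacral replicates 1 to 3. Replicate 3 was the highest of the thoracic and of the lumbar/sacral libraries, and the regions overlap. Hoxaas3 in skeletal MNs was at 5.79, 13.8 and 5.13 CPM in the cervical, 7.46, 12.4 and 57.0 CPM in the thoracic and 9.88, 22.6 and 40.9 CPM in the lumbar/sacral libraries. The same 2 libraries were the highest, and the regions overlap again. Microglia markers moved with these values. In skeletal MNs they summed to 8.39, 41.3 and 10.4 CPM in the cervical, 7.13, 41.1 and 118 CPM in the thoracic and 11.7, 54.6 and 106 CPM in the lumbar/sacral libraries, with P2ry12 the most abundant in each. In visceral MNs they were also highest in replicate 3 of the thoracic (56.7 CPM) and of the lumbar/sacral libraries (88.6 CPM). In both classes the marker sums differed by pool. They were lowest in pool 1 in each region, and cervical replicate 3 lay nearer to pool 1 than to pool 2. Pool 2 and pool 3 cannot be told apart from sex. The part of the markers and of the pool in the values of the noncoding RNAs was not tested.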
